A study of Mus musculus with 3 samples.

Results

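Haematopoietic growth factor receptors were compared between mouse myeloid leukaemia cells with low and high sensitivity to cytarabine (Ara-C), a deoxycytidine analogue that blocks DNA synthesis. The 9 genes Csf1r, Kit, Flt3, Csf3r, Epor, Csf2ra, Csf2rb, Csf2rb2 and Il3ra were chosen by gene symbol, and all 9 were measured among 17742 named genes. They were read by 10 of 26423 probes, with 2 probes for Csf2rb and 1 for each other gene. The resistant group was 1 array of B117HS. This line was derived from B117P by stepwise exposure to cytarabine, which took about 10 weeks, and its IC50 was about 10 times the parental one. The sensitive group was 2 arrays of the parental line B117P. Both lines come from BXH-2 mice, with bone marrow as the labelled tissue, and were cultured in a rich medium with serum and insulin, whose description names no added haematopoietic growth factor. BXH-2 mice develop myeloid leukaemia driven by an endogenous retrovirus. Each group is therefore a single line, and the labels do not say whether the B117P arrays came from separate cultures.

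These receptors carry the signals that let blood progenitors survive, divide and mature. Csf1r, Kit and Flt3 are class III receptor tyrosine kinases, which pair on binding their ligand and phosphorylate each other. Csf3r and Epor act as pairs of one chain that signal through JAK kinases and STAT factors. Csf2ra and Il3ra are alpha chains that bind GM-CSF and IL-3 and need a beta chain, and both can use the shared one encoded by Csf2rb. Mice have a second beta chain, Csf2rb2, which serves IL-3 only and is a close copy of Csf2rb beside it on chromosome 15.

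In the resistant cells Csf1r fell and Csf2rb rose, on the deposited scale and after correction for a dimmer array. Flt3, Csf3r and Il3ra were called lower on the deposited scale only. Kit, Csf2ra and Csf2rb2 were not called, and the Epor probe was close to 0 on every array. Intensities are in the arbitrary units of the deposited table. Differences are on the log2(intensity + 50) scale, resistant minus sensitive, and understate the change of dim genes. A gene counted as called when limma's Benjamini-Hochberg adjusted p, taken over every gene, was under 0.05 and its log2 difference reached 1, with one sign, against both sensitive arrays. As deposited, 1 receptor gene was called higher, where 5.23% of all genes were, and 4 were called lower, where 18.5% of all genes were. Among the 5318 genes with a mean of at least 500 units, which include 7 of the receptors, 8.86% were called higher and 35.2% lower.

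The resistant array was dimmer overall. Its median log2 ratio to the sensitive mean was -0.77 over 6184 probes of at least 500 units, and the median difference of all genes was -0.33. After each array was scaled to remove the shift of bright probes, 1 receptor gene was called higher, against 9.89% of all genes, and 1 lower, against 8.41%. Both calls were the same genes as before. The scaled fit could give a larger adjusted p even where the difference grew and its SE shrank. The gene for the Csf1r ligand, Csf1, went from 1.75 (SE 0.28, limma adjusted p = 0.00029) to 2.48 (SE 0.20, adjusted p = 0.010). Flt3 and Csf3r, which lost their calls on the adjusted p, changed otherwise than Csf1. The Flt3 difference shrank from -2.65 (SE 0.31) to -1.98 (SE 0.46), and that of Csf3r from -1.78 (SE 0.32) to -1.29 (SE 0.32). Why these calls were lost was not tested. Calls on both scales were reached by 5.21% of all genes upward and 8.31% downward, and by 8.82% and 13.4% of the genes of at least 500 units. With intensities floored at 50 and no offset, both calls were lost on limma's adjusted p (0.063 for Csf1r and 0.15 for Csf2rb), as were those of the called genes named below except Ms4a6c, while the directions of all these genes held. "Rose" and "fell" are kept for calls on both scales. With 1 resistant array assumed to vary like the sensitive ones, p-values rest only on the spread between the sensitive arrays, which may be technical. In the fit of deposited values that spread was largely pooled over genes of like intensity, so an SE is not a gene's own replicate spread. After scaling the SEs changed unevenly, from 0.31 to 0.46 for Flt3 and from 0.20 to 0.15 for Csf2ra. The degree of pooling in that fit is not given here. In RNA from whole cultures, fewer cells of a type and less RNA per cell cannot be told apart.

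**Figure D1:**
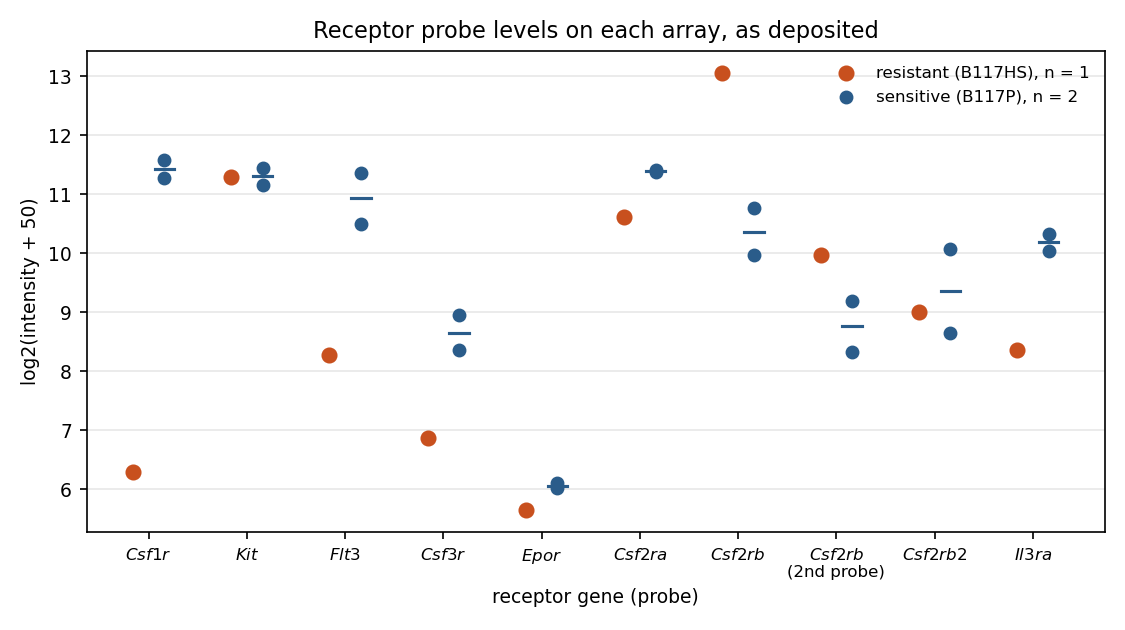
Intensity of each receptor probe on each array, as log2(intensity + 50), with the resistant array (n = 1) left of the 2 sensitive arrays and a bar at the sensitive mean. Csf1r, Flt3, Csf3r and Il3ra lie below both sensitive arrays and Csf2rb lies above both on either probe. Levels of different probes are not comparable with each other.

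Csf1r, the receptor for the macrophage growth factor CSF1, showed the largest difference of the 9. Its probe read 28.0 units in resistant cells, against 2413 and 3009 units in sensitive cells. The resistant value was close to the median of all probes on that array, 24.9 units. The log2 difference was -5.14 (SE 0.24, limma adjusted p = 2.13e-08), and -4.81 after scaling (adjusted p = 0.0077). By size of fall it ranked 25 among the 17742 genes as deposited and 28 after scaling. Measured by the pair of differences from each sensitive array, the nearest named genes among 8584 brighter ones were Tmem214 and Ms4a6c, at distances of 0.0945 and 0.222 log2 units. Tmem214 read 7.78 units in resistant cells and 1896 and 2241 in sensitive cells, and a failed spot was not tested there either. Ms4a6c, a membrane protein gene of the Ms4a family, read 94.9 in resistant cells and 5229 and 5325 in sensitive cells.

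Flt3, the receptor for the FLT3 ligand of early lymphoid and dendritic progenitors, read 260 units in resistant cells, against 2589 and 1388 units in sensitive cells. The resistant value lay below both, while the sensitive arrays differed from each other by a factor of 1.87. The log2 difference was -2.65 (SE 0.31, limma adjusted p = 2.89e-05). After scaling it was -1.98 with an adjusted p of 0.053, so the size was still past the threshold but the adjusted p was not.

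Kit, the receptor for stem cell factor on progenitors and mast cells, read 2447 units in resistant cells, between the 2728 and 2236 units of the sensitive cells. The groups overlapped, and the log2 difference was -0.01 (SE 0.21, limma adjusted p = 0.97). After scaling the Kit difference was 0.75 (adjusted p = 0.080). The 3 kinases of one structural class therefore differed in size: one fell on both scales, one was called lower as deposited, and one was not called on either.

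Their annotated start sites are shown with matches to factors known to act at myeloid receptor genes, in lower case with matches in capitals. The RefSeq sequences (GRCm38.p6) run from 250 bases before to 50 bases after the start, and 7 of the 9 genes matched an entry, Csf1r and Csf2rb being the others. The motifs were a PU.1 box (GAGGAA), a C/EBP motif (TTGCNNAA), a RUNX motif (TGNGGT) and a STAT motif (TTCNNNGAA), searched on both strands; no matches overlapped in the sequences below. Flt3 and Kit are shown as the kinases called lower and not called:
Flt3 promoter, chr5:147400440-147400739, minus strand: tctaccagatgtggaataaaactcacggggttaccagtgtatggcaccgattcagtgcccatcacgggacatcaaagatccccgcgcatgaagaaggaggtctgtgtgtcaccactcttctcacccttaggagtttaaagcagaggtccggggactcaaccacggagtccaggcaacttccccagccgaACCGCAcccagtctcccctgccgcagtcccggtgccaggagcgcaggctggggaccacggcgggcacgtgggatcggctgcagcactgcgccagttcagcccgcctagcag
Kit promoter, chr5:75574737-75575036, plus strand: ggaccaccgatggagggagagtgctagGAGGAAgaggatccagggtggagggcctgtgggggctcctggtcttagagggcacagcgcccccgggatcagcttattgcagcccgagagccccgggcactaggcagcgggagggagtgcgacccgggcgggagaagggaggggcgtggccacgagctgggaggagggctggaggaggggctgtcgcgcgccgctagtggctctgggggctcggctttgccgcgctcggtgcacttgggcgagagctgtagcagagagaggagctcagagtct
The Flt3 window held 1 RUNX match, whereas the Kit window held 1 PU.1 box. Over 32851 promoters of the same length, 45.8% held the RUNX motif and 28.3% the PU.1 box, so both matches are common.

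Csf3r, the receptor for the neutrophil growth factor G-CSF, read 66.9 units in resistant cells, against 277 and 446 units in sensitive cells. The resistant array was lower than both sensitive arrays. The log2 difference was -1.78 (SE 0.32, limma adjusted p = 0.00073). After scaling it was -1.29 with an adjusted p of 0.059, so here too the size held and the adjusted p did not. The other single-chain receptor, Epor, is the erythropoietin receptor of red cell precursors. Its probe read 0 units in resistant cells and 18.6 and 14.5 units in sensitive cells, all below the offset of 50. Its log2 difference of -0.41 (SE 0.13, limma adjusted p = 0.021) missed the size asked, and no level could be set from it.

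**Figure D2:**
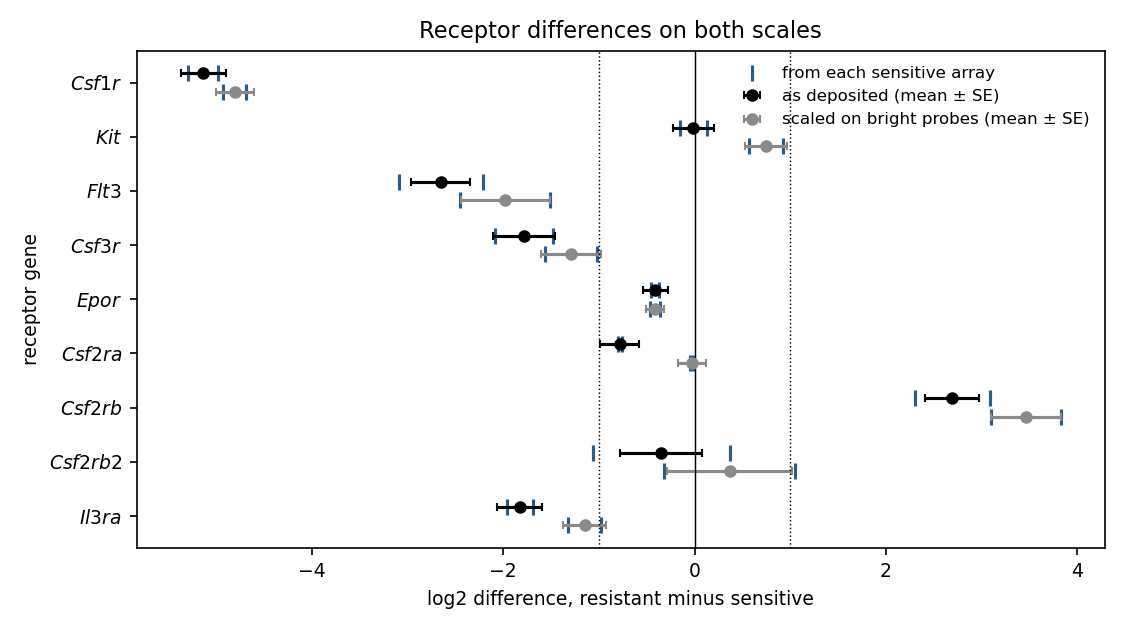
Log2 differences of the 9 receptor genes, resistant minus sensitive, as deposited (black) and after scaling on bright probes (grey), each with its limma SE; blue ticks are the differences from each sensitive array and dotted lines mark a size of 1. Csf1r, Csf2rb, Flt3 and Csf3r stay past the lines on both scales, with Flt3 and Csf3r missing the adjusted p after scaling, while Il3ra crosses the line from sensitive replicate 2 after scaling.

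Csf2rb, the beta chain shared by the receptors for GM-CSF, IL-3 and IL-5, moved the other way. Its brighter probe read 8484 units in resistant cells, against 950 and 1682 units in sensitive cells. The log2 difference was 2.70 (SE 0.28, limma adjusted p = 1.26e-05) as deposited and 3.47 after scaling (adjusted p = 0.014). By size of rise it ranked 239 among all genes as deposited and 231 after scaling.

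The second Csf2rb probe read 950.4 units in resistant cells, against 271 and 536 units in sensitive cells. It was higher than both but by less, and the log2 difference was 1.21 (SE 0.32, limma adjusted p = 0.0090). From sensitive replicate 2 alone it was 0.77, short of the size asked, so this probe gave no call as deposited. After scaling it was called higher, at 1.95 (adjusted p = 0.044). The 2 probes thus pointed the same way and differed in size. By the pair of differences on the brighter probe, the nearest named genes were Gla, which encodes the lysosomal enzyme alpha-galactosidase A (distance 0.107), and Ffar2, a receptor for short-chain fatty acids (distance 0.156). Gla read 5029 units in resistant cells and 513 and 931 in sensitive cells.

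Csf2rb2, the IL-3 specific beta chain, did not follow its neighbour. Its probe read 465 units in resistant cells, inside the range of 349 and 1029 units in sensitive cells. The sensitive arrays differed by a factor of 2.95, a larger log2 difference between replicates than 99.8% of all genes showed. The log2 difference between the groups was -0.35 (SE 0.43, limma adjusted p = 0.53), and 0.37 after scaling (adjusted p = 0.69). Against sensitive replicate 2 alone it was -1.07, and against replicate 1 alone 0.37. Whether the probes of these close copies read one gene each was not tested, because the probe sequences were not used here.

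Il3ra, the alpha chain that binds IL-3, read 277 units in resistant cells, against 1227 and 1005 units in sensitive cells. The log2 difference was -1.83 (SE 0.24, limma adjusted p = 6.77e-05). After scaling it was -1.15 with an adjusted p of 0.040, but only -0.98 from sensitive replicate 2, just short of the size asked. Csf2ra, the alpha chain that binds GM-CSF, read 1510 units in resistant cells, against 2598 and 2675 units in sensitive cells. Its difference of -0.78 (SE 0.20, limma adjusted p = 0.0072) was below the size asked and close to the median ratio of bright probes, and it was -0.03 after scaling (adjusted p = 0.89).

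The start sites of these alpha chains and of Csf3r are shown with the same motifs, as receptors called lower as deposited (Csf3r, Il3ra) beside one with no difference after scaling (Csf2ra):
Csf3r promoter, chr4:126024409-126024708, plus strand: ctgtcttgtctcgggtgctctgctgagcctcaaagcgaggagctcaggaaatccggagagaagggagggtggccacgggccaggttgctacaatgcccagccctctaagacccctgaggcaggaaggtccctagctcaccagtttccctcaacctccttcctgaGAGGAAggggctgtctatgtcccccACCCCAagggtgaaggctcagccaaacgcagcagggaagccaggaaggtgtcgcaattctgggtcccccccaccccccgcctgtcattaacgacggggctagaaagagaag
Il3ra promoter, chr14:14346245-14346544, plus strand: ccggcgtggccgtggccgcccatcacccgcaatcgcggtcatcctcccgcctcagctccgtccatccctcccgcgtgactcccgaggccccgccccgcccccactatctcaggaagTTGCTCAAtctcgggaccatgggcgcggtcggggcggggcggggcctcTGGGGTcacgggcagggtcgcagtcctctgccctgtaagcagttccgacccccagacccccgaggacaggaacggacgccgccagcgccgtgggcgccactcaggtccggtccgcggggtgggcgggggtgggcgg
Csf2ra promoter, chr19:61228369-61228668, minus strand: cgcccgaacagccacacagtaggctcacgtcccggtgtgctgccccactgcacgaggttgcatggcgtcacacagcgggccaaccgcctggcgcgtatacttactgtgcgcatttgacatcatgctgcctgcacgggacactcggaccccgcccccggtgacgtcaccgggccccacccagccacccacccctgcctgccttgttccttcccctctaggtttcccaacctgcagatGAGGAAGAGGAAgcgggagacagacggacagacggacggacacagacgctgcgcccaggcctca
The Csf3r window held 1 PU.1 box and 1 RUNX match. The Il3ra window held 1 C/EBP match, a motif in 10.8% of promoters, and 1 RUNX match. The Csf2ra window held 2 PU.1 boxes next to each other just before the start. The Csf2rb2 window, not shown, held the single STAT match among the 7, a motif found in 8.3% of promoters.

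The replicate spread of the receptors was itself uneven. Between the sensitive arrays, 0.857% of all genes differed by a log2 value of at least 1, and Csf2rb2 was among them at 1.43, higher in replicate 2. Csf2rb differed by 0.79 in the same direction and Csf3r by 0.60, while Flt3 differed by -0.88, higher in replicate 1. These spreads were larger than those of 98.0%, 95.0% and 98.6% of genes. Csf1r (0.31), Kit (-0.28), Il3ra (-0.28), Epor (-0.09) and Csf2ra (0.04) differed less.

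**Figure D3:**
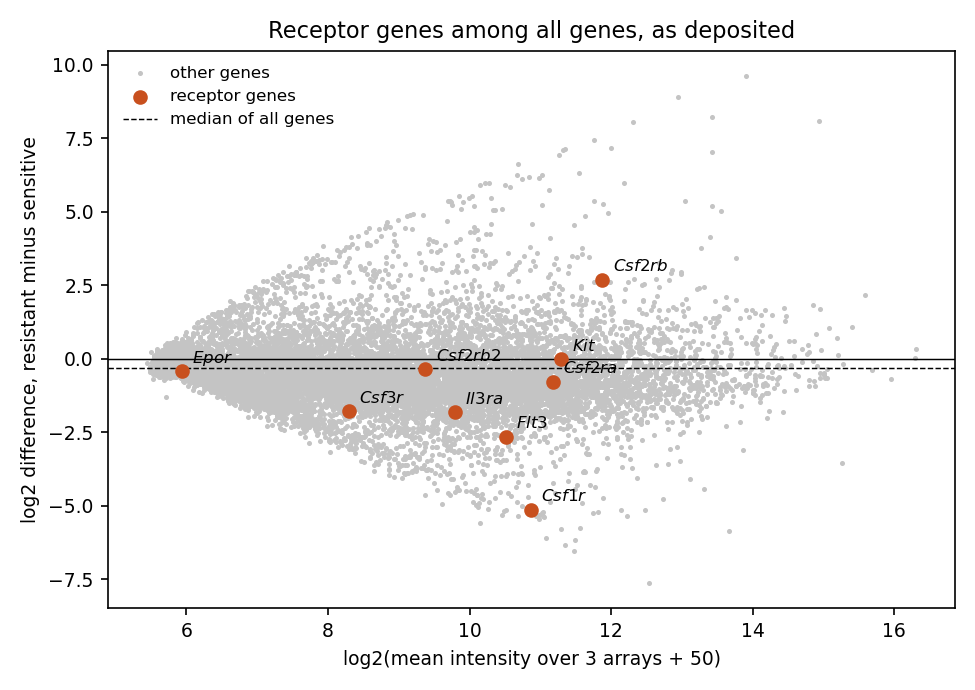
Log2 difference, resistant minus sensitive, against the log2 mean intensity over the 3 arrays for all 17742 genes (grey) with the 9 receptor genes in orange and the median of all genes dashed. Csf1r lies at the lower edge of the cloud and Csf2rb in its upper part, with Kit, Csf2ra and Csf2rb2 inside it.

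Among the ligands, the gene for IL-3 rose with the beta chain. Il3 read 3917 units in resistant cells, against 39.8 and 100.2 units in sensitive cells. The log2 difference was 5.09 (SE 0.32, limma adjusted p = 2.16e-07) and 5.86 after scaling. Csf1, the ligand of Csf1r, read 672 units in resistant cells, against 150 and 181 units in sensitive cells. Its log2 difference was 1.75 (SE 0.28, limma adjusted p = 0.00029). So Il3 rose while Il3ra was called lower as deposited, and Csf1 rose while Csf1r fell. Of 9 measured ligand genes 2 rose and none fell, with a median difference of -0.01 against -0.33 for all genes. After scaling the medians were 0.27 and -0.06. For these and the gene lists below, 5.21% of all genes rose and 8.31% fell, and 8.82% and 13.4% of genes of at least 500 units. Flt3l, the FLT3 ligand, read 148 units in resistant cells and 94.4 and 108 in sensitive cells and was not called, nor was Csf3 (57.6 in resistant cells, 78.3 and 84.4 in sensitive cells).

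Other cytokine and growth factor receptors moved in both directions, with 3 of 15 higher and 7 lower on both scales. Their median was -1.29 as deposited and -0.83 after scaling. Il7r, the IL-7 receptor alpha chain of lymphoid precursors, read 10.9 units in resistant cells, against 2052 and 1236 units in sensitive cells (log2 difference -4.76). A failed spot was not tested for this probe. Il6st, the gp130 chain shared by IL-6 type receptors, fell by 3.23 on the log2 scale and Il6ra, the IL-6 binding chain, by 1.97. Ghr, the growth hormone receptor, read 1551 units in resistant cells, against 19.9 and 31.7 units in sensitive cells. Its log2 difference was 4.41, and 1.63 when all its probes were averaged. Igf1r, the IGF1 receptor, rose by 2.87 on the log2 scale. Crlf2, the TSLP receptor chain, was called lower as deposited only (-1.29).

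Several genes downstream of cytokine receptors rose. Stat5b, a STAT factor activated by Epor, the GM-CSF and IL-3 receptors and the growth hormone receptor, read 2481 units in resistant cells, against 603 and 590 units in sensitive cells. Its log2 difference was 1.97 (SE 0.22, limma adjusted p = 2.01e-05). It was the 1 gene of 7 measured JAK and STAT genes called on both scales. The list's median was -0.38 as deposited and 0.28 after scaling. Jak1 was called lower as deposited only (-1.29), and Jak2, the kinase bound to Epor and the beta chain, was not called (0.19).

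Cish, a feedback inhibitor gene induced by STAT5, read 2332 units in resistant cells, against 147 and 219 units in sensitive cells (log2 difference 3.37, limma adjusted p = 1.53e-06). Socs2, another feedback inhibitor gene, rose by 2.01. Id1, an inhibitor of basic helix-loop-helix factors, rose by 3.51, while its sensitive arrays (206 and 529 units) differed by 1.18. Pim2, a survival kinase gene, read 4.67 units in resistant cells, against 139 and 104 in sensitive cells (log2 difference -1.64), on a probe near 0 in resistant cells where a failed spot was not tested. The Pim2 call was made in 8 of 13 settings, and was lost after centring (-1.02) and with an offset of 100 (-1.08) among others. In this list 3 of 12 genes rose and 1 fell, with a median of -0.16 as deposited and 0.50 after scaling. Pim1 and Mcl1, the kinase and survival genes with the brightest probes, were not called (-0.34 and 0.22).

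**Figure D4:**
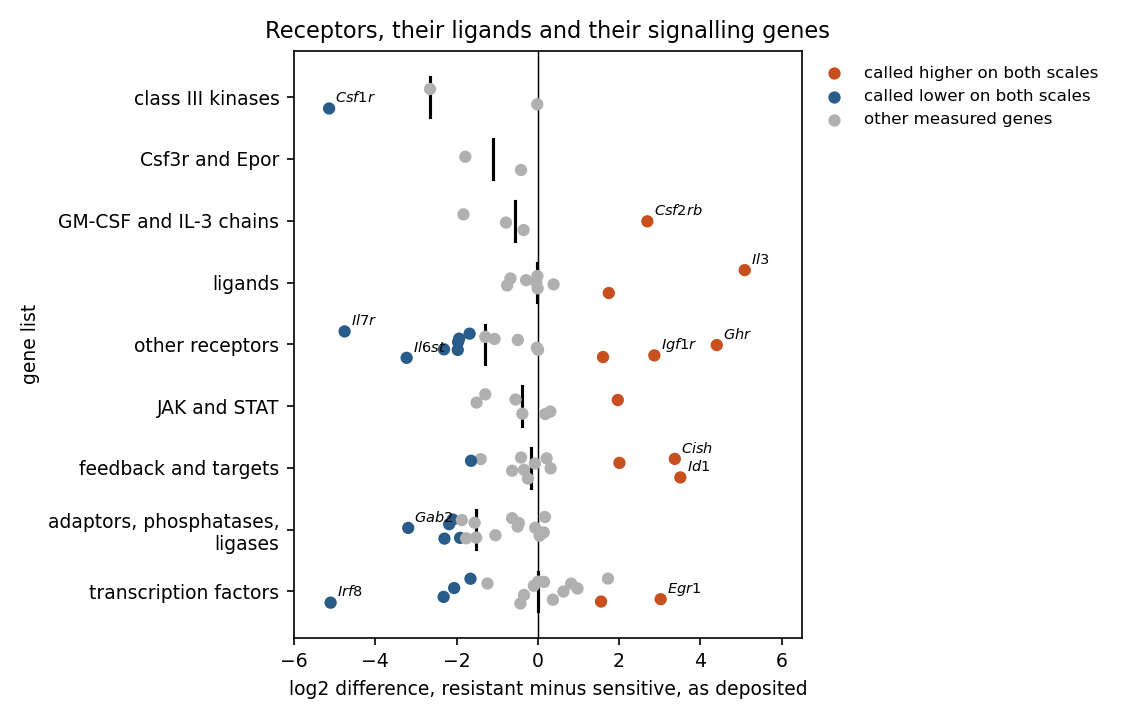
Log2 difference, resistant minus sensitive, as deposited, of each measured gene in the receptor groups and in 6 lists of related genes; a black bar marks each list's median, orange and blue mark calls on both scales. Il3, Ghr, Id1 and Cish lie far to the right, and Csf1r, Irf8 and Il7r far to the left.

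Adaptors and enzymes that act downstream of the receptors were lower where called. The list also held phosphatases and ligases that restrain such signals, and some of these were among the genes called lower. Of 17 measured genes none rose and 5 fell, 10 were called lower as deposited, and the median was -1.52 (-0.79 after scaling). Of all genes 18.5% were called lower as deposited and 8.31% fell, and of genes of at least 500 units 35.2% and 13.4%. Grb2, the adaptor that recruits the RAS exchange factor, read 1304 units in resistant cells, against 5879 and 6314 in sensitive cells (log2 difference -2.18). Pik3cd, the PI3 kinase catalytic subunit of leukocytes, fell by 2.30. Gab2, a docking protein, fell by 3.19, with a log2 difference of -2.05 when its probes were averaged. Sos1, the RAS exchange factor, fell by 2.09. Both of these read near 0 on the resistant array (-9.33 and 1.56 units), where a failed spot was not tested. Plcg2, a phospholipase, was called lower as deposited only (-1.87). Ptpn11, the phosphatase SHP2, was not called (-0.50).

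Among 17 measured transcription factors that act at receptor genes, 2 rose and 4 fell. Their median was 0.01 as deposited and 0.25 after scaling. Both medians were the value of Egr2, a dim probe that read 17.1 units in resistant cells and 13.7 and 19.8 in sensitive cells. Spi1, which encodes the PU.1 factor that drives Csf1r, read 109 units in resistant cells, against 634 and 591 in sensitive cells (log2 difference -2.06, limma adjusted p = 5.04e-05). Irf8, a monocyte and dendritic cell factor, fell by 5.10, with 29.6 units in resistant cells against 3115 and 2302 in sensitive cells. Klf4, a monocyte factor, fell by 2.32 on a probe that read -1.56 units in resistant cells. A failed spot was not tested for either probe. Egr1, an early growth response factor, rose by 3.02, while its sensitive arrays (90.7 and 277 units) differed by 1.22. Quantile normalization took the Egr1, Pim2 and Sos1 calls past the adjusted p threshold. Runx1 was called lower as deposited and not after scaling (-1.24, and -1.99 when its probes were averaged), and Tal1 was called higher after scaling only (1.14).

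Markers of the cells that use these receptors moved with them in part, and their part in the receptor differences was not tested. The sums below are of deposited intensities, uncorrected for the dimmer resistant array, and add up different probes. Of 9 measured monocyte and macrophage markers 1 rose and 4 fell, where 5.21% of all genes rose and 8.31% fell. Their summed intensity was 11261 units in resistant cells against 18902 and 24253 in sensitive cells. Most of the resistant sum was Cd14, which was not called (0.61). Without it the sums were 2189 in resistant cells against 14346 and 16541 in sensitive cells. Dendritic cell markers fell in 3 of 9 genes, with sums of 422 in resistant cells and 3281 and 3646 in sensitive cells. Without the brightest dendritic cell marker the sums were 383 in resistant cells against 1249 and 1258 in sensitive cells. Neutrophil markers rose in 4 of 12 and fell in 1, whereas Csf3r, the G-CSF receptor, was called lower as deposited only. Their sums were 146672 in resistant cells against 110531 and 120075 in sensitive cells. Without the brightest neutrophil marker they were 65768 against 33821 and 35937. Of 6 erythroid markers none was called on both scales, and apart from the widely expressed Tfrc they read at most 54.7 units. Mast cell and basophil markers had 0 of 8 called on both scales, and stem and early progenitor markers 1 higher and 2 lower of 6. Of B cell markers 1 of 4 fell, and none of 4 T cell, 5 megakaryocyte and 5 stromal markers was called on both scales. Both sensitive arrays read at least 50 units for 7 of 9 monocyte and macrophage markers, 7 of 12 neutrophil markers and 2 of 6 erythroid markers.

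**Figure D5:**
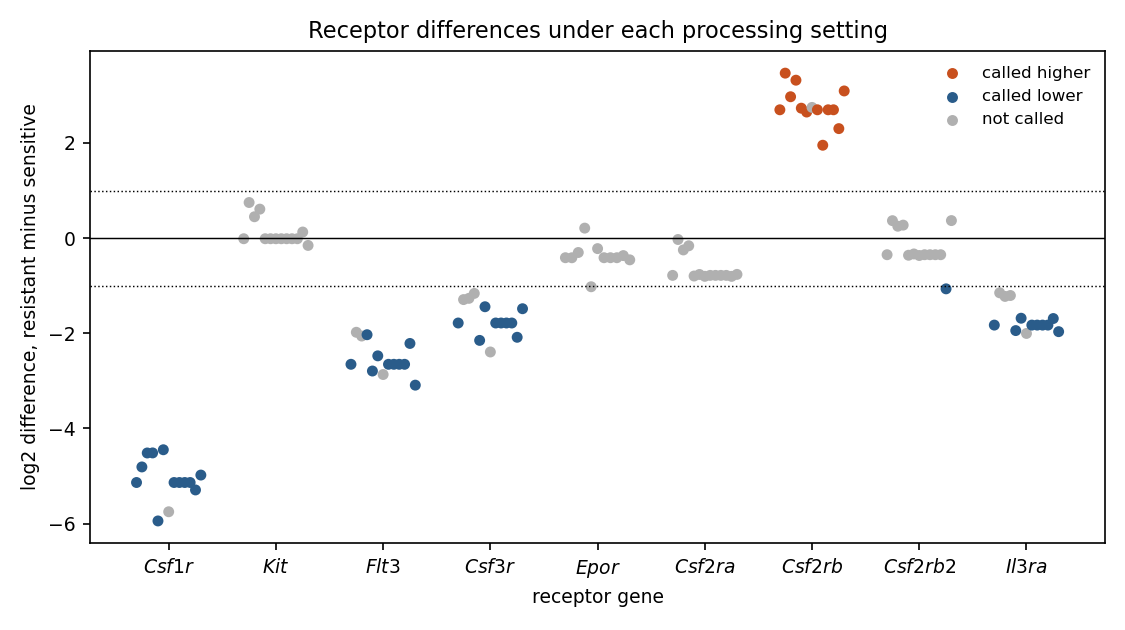
Log2 difference, resistant minus sensitive, of each receptor gene under the processing settings tried, coloured by call, including both settings that leave out 1 sensitive array, where only the size is asked. Csf1r stays between -5.94 and -4.45 and Csf2rb stays at or above 1.95, while Kit, Csf2rb2 and Epor lie on both sides of 0. Settings that change only a threshold are not drawn, nor is the second Csf2rb probe alone, which gave 1.21 as deposited and was not called.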

How the data were processed

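RNA was amplified to antisense RNA and labelled with Cy5 for 1-colour hybridisation, per the labels' protocols. The authors deposited 1 table of intensities per probe and array; values reach below 0, so a background had been subtracted. The sources used here do not name the scanner, its software, the scaling or the array's genome build. Groups came from the sample titles. Of 26423 probes, 20377 had 1 platform symbol and 6046 none; 18213 symbols were current names and 2126 older ones in the GRCm38.p6 table, used for names only. The brightest probe by mean stood for each gene. Values were kept as deposited and taken as log2(intensity + 50). limma 3.58.1 in R 4.3.3 (lmFit, eBayes with trend) was fitted to all 3 arrays over 17742 genes, with 1 residual degree of freedom and a prior of 11.0. Members, lists, thresholds and alternatives were chosen with earlier results of these data known. Other genes were named by rule: of each list up to 4 called on both scales by size, with up to 2 further by brightness, and 2 nearest genes for each receptor that rose or fell. Marker lists are given as counts and sums, with Cd14 and Tfrc named because sums turn on them. The fit was tested on simulated data (17742 genes, 20 simulations, 200 genes changed): 94.3% of changes of 1.5 log2 units were found and 99.8% of changes of 2, and a mean of 3.8 unchanged genes were called. The simulated arrays were not dimmer, and their normal noise was drawn from the fit's own variances. The low count of false calls was therefore built in and does not measure the error of 1 resistant culture. Names, motifs and figures were handled in Python 3.11.15 with pandas 2.3.3 and matplotlib 3.10.9. Spot flags were not used. The number of arrays limits the precision.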

Additional observations from a re-analysis of the deposited data

How the results depend on the processing

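No paired analysis was possible because the resistant group has 1 array and its title gives no replicate number. Counts of called genes as deposited were 928 higher and 3284 lower. They were 1754 and 1492 after scaling on bright probes and 1697 and 1273 after centring on array medians. They were 133 and 26 when intensities were floored at 50 without an offset and 354 and 734 when a log2 difference of at least 2 was asked. After quantile normalization 1338 genes were higher and 1219 lower. Without 1 sensitive array, where only the size was asked, 976 to 1108 genes were higher and 3625 to 4288 lower. Of the receptors, 4 were called lower as deposited, 1 after scaling on bright probes, 1 after quantile normalization, 2 after centring, 2 at the larger size and 0 with the floor, where 0 was called higher. Without 1 sensitive array 4 to 5 receptors were lower by size, Csf2rb2 being the added one without replicate 1. The floor also ended the call of Csf1r (-5.75, limma adjusted p = 0.063) and of Csf2rb (2.75, adjusted p = 0.15), and the cause was not tested. Over the 13 settings with a fit, Csf1r was called lower in 12, Flt3 in 10, and Csf3r and Il3ra in 8 each, while Csf2rb was called higher in 12. The adjusted p ranged up to 0.063 for Csf1r, 0.16 for Flt3, 0.16 for Csf3r, 0.15 for Csf2rb and 0.088 for Il3ra. The second Csf2rb probe was chosen as an alternative after seeing the data.

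Signs turned for genes that were not called. Kit was 0.75 after scaling, 0.45 after quantile normalization, 0.61 after centring, and -0.15 to 0.13 without 1 sensitive array. Csf2rb2 was 0.37, 0.25 and 0.27 in the first 3 of these settings and -1.07 to 0.37 without 1 sensitive array. Csf3 was 0.18, 0.28 and 0.33 after scaling, quantile normalization and centring. Pim1 was 0.43 after scaling, 0.28 after centring and -0.71 to 0.034 without 1 sensitive array, Ptpn11 was 0.27 and 0.13 after scaling and centring, and Epor was 0.21 after centring. Epor had no value with the floor, since it lay below 50 on every array. Quantile normalization also ended the calls of Egr1 (3.56), Pim2 (-1.42) and Sos1 (-1.87) on the adjusted p. The Pim2 call was also lost after centring (-1.02), with an offset of 100 (-1.08), with the floor (-1.27) and at the larger size. With the offset of 16, values below -15 were raised to it.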
